A study of Arabidopsis thaliana with 6 samples.

Results

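Embryos of Arabidopsis thaliana with a Cvi-0 mother were compared with embryos with a Col-0 mother, over all genes with deposited reads. Col-0 and Cvi-0 are inbred accessions, and their hybrid embryos carry 1 nuclear genome copy of each whichever accession is the mother. The comparison used all 6 libraries of the study, 3 from Cvi-0 x Col-0 crosses and 3 from Col-0 x Cvi-0 crosses. Within each direction there was 1 library of 1-cell/2-cell embryos, 1 of 8-cell embryos and 1 of embryos of about 32 cells, taken about 40, 64 and 78 h after pollination. Each library came from a pool of 20 embryos dissected by hand, from plants without mutation, transgene or treatment, and its poly(A) RNA was amplified linearly before sequencing. The mother is the accession written first, by the usual convention. With 1 library for each stage and direction no group had a replicate, so stages served as repeats of the cross difference. The p-values therefore measure how much that difference varied between stages, not how much it would vary between repeated samples.

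Reciprocal hybrids of plants share their nuclear genotype but not everything else. In Arabidopsis mitochondria and chloroplasts come through the egg, the seed coat that surrounds the embryo is tissue of the mother, and RNA and chromatin marks of the egg can persist after fertilization. The question was which functions differed between the directions, and whether the difference resembled that between an earlier and a later stage of development. Values of a gene are given as RPM, the reads of the gene scaled to the library's total of mapped reads. RPM is not divided by gene length, so it compares libraries and not genes. Differences are log2 ratios of Cvi-0 x Col-0 over Col-0 x Cvi-0, positive where the level was higher with a Cvi-0 mother. In all lists of 3 values the order is from the earliest stage to the latest.

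The libraries held 10942750, 12688762 and 14805499 gene reads in the Cvi-0 x Col-0 direction and 10578677, 10299142 and 14641128 in the Col-0 x Cvi-0 direction. Reads fell on 23874 genes, of which 16393 had reads in all 6 libraries and 16503 passed the filter on low counts. The 5 embryo markers (LEC1, WOX2, KN, ATML1 and DRN) had reads in every library and summed to 904.5, 556 and 745 RPM in Cvi-0 x Col-0 embryos and 701, 776 and 664 RPM in Col-0 x Cvi-0 embryos. The 6 seed coat markers, genes of flavonoid and tannin synthesis, summed to 31.0, 57.8 and 92.3 RPM with a Cvi-0 mother and 33.3, 38.3 and 26.0 RPM with a Col-0 mother, and their defining laccase gene TT10 was at 0 in the 4 libraries of the earlier stages. The 6 endosperm markers summed to 43.8, 22.2 and 13.2 RPM with a Cvi-0 mother and 51.9, 22.2 and 7.13 RPM with a Col-0 mother, and between 0 and 3 of them were at 0 in each library. In 5 of the 6 libraries most of the endosperm sum was SUC5, a sucrose transporter gene. Seed coat markers were thus present at low levels in every library, and at 78 h their sum was higher with a Cvi-0 mother. Among the 7927 tested genes with at least 10 reads of each allele and 30 in all, allele reads numbered 4431717 in the Cvi-0 x Col-0 libraries and 4079687 in the Col-0 x Cvi-0 libraries, and 46.8% and 53.6% of them came from the maternal allele.

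Across the whole table the directions differed little that repeated at every stage. With edgeR's quasi-likelihood test, stage as block and Benjamini-Hochberg adjustment at 0.05, 0 of 16503 genes were called higher in Cvi-0 x Col-0 embryos (0.0%) and 1 was called lower (0.00606%). An unadjusted p under 0.05 was reached by 948 genes (5.74%), 540 of them higher with a Cvi-0 mother (3.27%) and 408 lower (2.47%). DESeq2, which modelled the same design, called 31 genes higher (0.188%) and 22 lower (0.134%) of 16468, and limma on log2 RPM called 0 in either direction. On the same side at all 3 stages were 2660 genes higher (16.1%) and 2238 lower (13.6%) with a Cvi-0 mother. Within single stages the differences were wider. The Cvi-0 x Col-0 level was at least 2-fold higher for 1551 genes at the 1-cell/2-cell stage (9.4%), 2767 at the 8-cell stage (16.8%) and 1046 at the 32-cell stage (6.34%). It was at least 2-fold lower for 1635 (9.91%), 1209 (7.33%) and 681 genes (4.13%) at the same stages. The SD of the log2 difference over genes was 0.90, 0.97 and 0.68. Across genes, which are not independent replicates, the differences at 2 stages had Pearson correlations between -0.045 and 0.179. Most of the difference within a stage was therefore not shared with the other stages. In these bulk pools, fewer cells of a type and less RNA per cell cannot be told apart.

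The gene called lower was AT2G07667, annotated as an uncharacterized protein at chr2:3364296-3366661 (plus strand) of TAIR10.1. It lies in the part of chromosome 2 that holds a copy of the mitochondrial genome, a known insertion near the centromere of the Col-0 reference. All 2366 bases of the gene matched the Col-0 mitochondrial genome, a molecule of 367808 bases, from position 267178 to 269543 on the opposite strand with 0 mismatches. The stretch of 120 bases shown here, chr2:3364539-3364658 on the plus strand of the RefSeq assembly TAIR10.1, is the same letter for letter as positions 269181 to 269300 of the mitochondrial genome on the minus strand. It is given because a read from it would match both copies equally well.
AT2G07667: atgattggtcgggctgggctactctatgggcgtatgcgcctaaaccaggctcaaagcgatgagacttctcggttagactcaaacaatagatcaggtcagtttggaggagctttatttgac

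AT2G07667 had 0.155, 0.135 and 0 RPM with a Cvi-0 mother and 229, 94.1 and 1.72 RPM with a Col-0 mother. These were 2.00, 2.00 and 0 reads against 2915, 1140 and 28.0 reads. The gene was nearly without reads in every Cvi-0 x Col-0 library and had many in the Col-0 x Cvi-0 libraries of the 2 earlier stages, and the groups did not overlap. Reads with unlisted variants were not kept, so a low count with a Cvi-0 mother need not mean little RNA. The fitted log2 difference was -10.01 ± 0.44 (adjusted p = 0.000631, edgeR quasi-likelihood test), and DESeq2 gave an adjusted p of 4.7e-37. The gene had 0 allele reads in all libraries, so its parent of origin could not be read. Reads of the nuclear copy and of the mitochondrion cannot be told apart here. The authors kept unique matches, and the sources used here do not say how reads shared by both copies came to be counted.

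Neighbours of AT2G07667 in the same segment did not share its pattern at all stages. AT2G07698, which encodes an alpha subunit of the mitochondrial ATP synthase, had 183, 338 and 95.8 RPM in the Cvi-0 x Col-0 libraries and 744.6, 296 and 24.5 RPM in the Col-0 x Cvi-0 libraries. AT2G07777, which encodes its subunit 9, had 8.39, 59.1 and 15.4 RPM with a Cvi-0 mother and 493, 159 and 4.06 RPM with a Col-0 mother. Both were lower with a Cvi-0 mother at the 1-cell/2-cell stage and higher at the 32-cell stage, with log2 differences over all stages of -0.13 ± 0.65 and -1.87 ± 1.403 that did not pass the test. In all, 115 annotated genes, 113 on chromosome 2 and 2 on chromosome 1, matched the mitochondrial genome over at least 90% of their length at 95% identity or more, and all 115 had reads. This list was drawn up after the values of AT2G07667 were seen. Of its 92 tested members, 90 were lower with a Cvi-0 mother at the 1-cell/2-cell stage, 41 at the 8-cell stage and 2 at the 32-cell stage, while 51.0%, 53.1% and 51.0% of all genes were higher at these stages. Their summed level was 1137, 3856.5 and 1124 RPM in Cvi-0 x Col-0 embryos and 7008.5, 3221 and 127 RPM in Col-0 x Cvi-0 embryos. The median log2 difference ran from -2.31 at the earliest stage through 0.07 to 2.35 at the latest, so the sign turned round while AT2G07667 kept its own. 1 of the 92 was lower at all 3 stages and 0 were higher at all 3, against 13.6% and 16.1% of all genes.

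**Figure D1:**
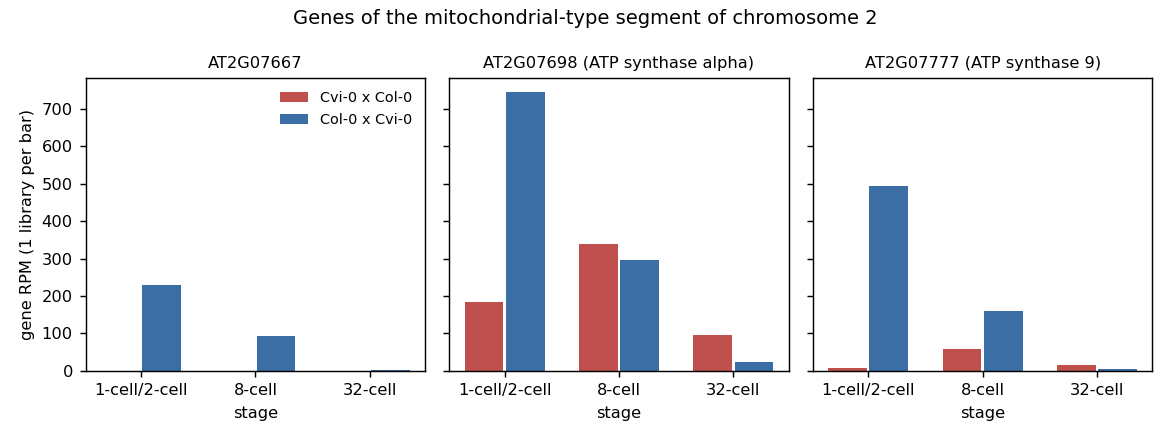
RPM of AT2G07667 and 2 neighbouring mitochondrial-type genes by stage, 1 library per bar, with Cvi-0 x Col-0 left of Col-0 x Cvi-0 at each stage. AT2G07667 is near 0 in all 3 Cvi-0 x Col-0 libraries (at most 0.155 RPM), while its neighbours reach 338 and 59.1 RPM there.

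The genes that came next were those with the smallest p among genes on the same side at all 3 stages, 9 lower beside AT2G07667 and 10 higher. None of the 19 passed the edgeR test after adjustment, with an adjusted p of 0.434 for AT1G47950 and 0.814 for the other 18. The rule picked them for their difference between the directions, so their values are a description.

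**Figure D2:**
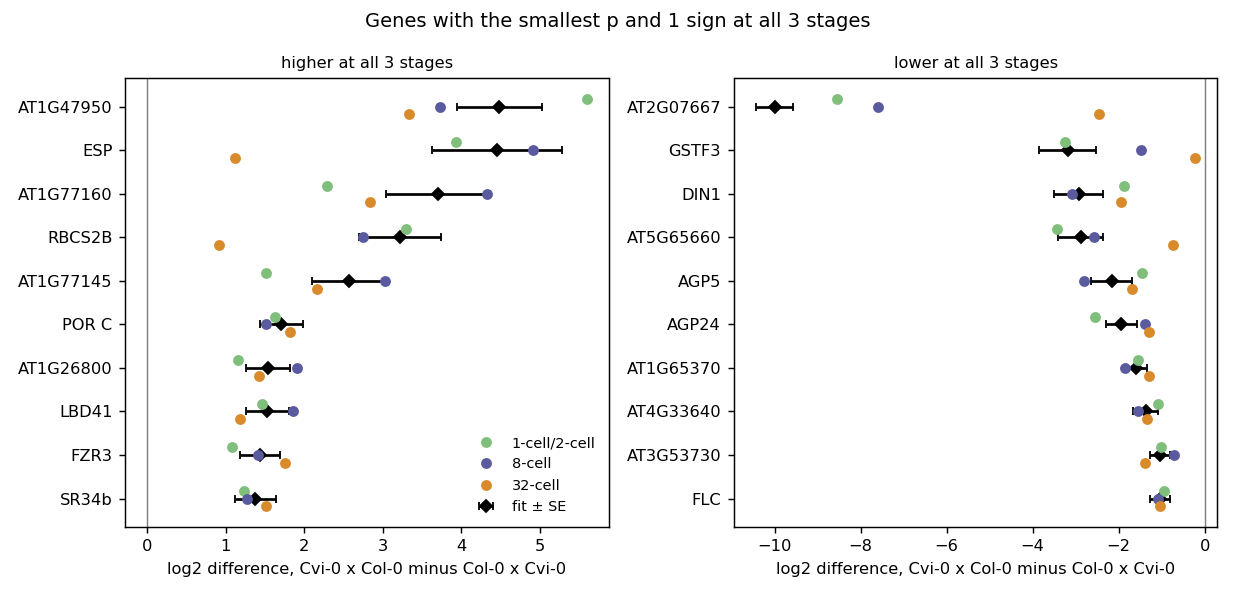
Log2 difference (Cvi-0 x Col-0 minus Col-0 x Cvi-0) of the 10 genes in each direction with the smallest p. Dots are the differences at single stages, computed with 0.5 CPM added, and diamonds the edgeR fit over all stages with its SE; dots of low genes lie nearer 0 than the fit.

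Of the 10 higher genes, several had reads mainly from 1 allele. AT1G47950, an uncharacterized gene at chr1:17675488-17681953 (minus strand), had 56.0, 67.4 and 19.0 RPM in Cvi-0 x Col-0 embryos, against 0.669, 3.88 and 1.199 RPM in Col-0 x Cvi-0 embryos (log2 difference 4.48 ± 0.54, DESeq2 adjusted p = 1.7e-15). In Cvi-0 x Col-0 embryos its allele reads were all Cvi-0, 561 of 561, a maternal share of 100% (95% exact Clopper-Pearson interval 99.3 to 100). With a Col-0 mother there were 5 Col-0 and 11 Cvi-0 reads, so the Cvi-0 allele had 561 reads when it came from the mother and 11 when it came from the father. Intervals on shares cover counting error alone, because amplified RNA yields several reads per molecule.

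ESP, at chr1:20170715-20173949 (minus strand), encodes the epithiospecifier protein, which steers the breakdown of glucosinolates, the defence compounds of this plant family. Its levels were 34.2, 16.1 and 0.992 RPM with a Cvi-0 mother and 1.77, 0.0823 and 0.184 RPM with a Col-0 mother (log2 difference 4.46 ± 0.83, DESeq2 adjusted p = 0.000104), higher with a Cvi-0 mother at each stage. The Cvi-0 allele gave 386 reads with a Cvi-0 mother and 15 with a Col-0 mother, and the Col-0 allele gave 0 and 1. RBCS2B, which encodes a small subunit of the carbon-fixing enzyme Rubisco, had 18.8, 19.3 and 0.511 RPM in the Cvi-0 x Col-0 libraries and 1.45, 2.02 and 0.0615 RPM in the Col-0 x Cvi-0 libraries (log2 difference 3.22 ± 0.52, DESeq2 adjusted p = 0.00219). Its reads were mostly maternal in both directions, 99.2% (95.6 to 99.98) in Cvi-0 x Col-0 embryos and 88.5% (69.8 to 97.6) in Col-0 x Cvi-0 embryos. The seed coat marker sums, given with the depths, were also higher with a Cvi-0 mother at 64 and 78 h but not at 40 h. ESP reads were 100% maternal with a Cvi-0 mother but 6.25% maternal (0.158 to 30.2) with a Col-0 mother, unlike those of RBCS2B. The part of seed coat RNA in the levels of the 2 genes was not tested.

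AT1G77160 and AT1G77145 are neighbours at chr1:28995146-28996594 (minus strand) and chr1:28989838-28991454 (minus strand), both of the DUF506 family of unknown function. They are 90.6% identical over 1478 bases, so the split of reads between them is uncertain. AT1G77160 had 98.5, 24.5 and 2.82 RPM in Cvi-0 x Col-0 embryos, against 19.7, 0.661 and 0 RPM in Col-0 x Cvi-0 embryos. AT1G77145 had 77.8, 12.1 and 2.58 RPM with a Cvi-0 mother and 27.1, 0.908 and 0.184 RPM with a Col-0 mother. Both were highest at the 1-cell/2-cell stage and higher with a Cvi-0 mother at each stage, with log2 differences of 3.704 ± 0.66 and 2.58 ± 0.47. In Cvi-0 x Col-0 embryos their allele reads went the other way from those of AT1G47950 and ESP. AT1G77160 had 53 reads of the paternal Col-0 allele and 2 of the maternal Cvi-0 allele, and AT1G77145 had 113 and 0, a maternal share of 0% (0 to 3.21). In Col-0 x Cvi-0 embryos 35 reads of AT1G77145 were Col-0 and 6 Cvi-0, giving a maternal share of 85.4% (70.8 to 94.4). AT1G77160 had 2 Col-0 and 7 Cvi-0 reads there, a maternal share of 22.2% (2.81 to 60.01). That interval includes an even split, so these few reads do not show which allele of AT1G77160 gave more there. The Col-0 allele thus gave most AT1G77145 reads in both directions, and more of them when it came from the father.

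In the other 5 higher genes the difference was not confined to 1 allele where alleles could be counted. POR C had 0 allele reads, and in FZR3, LBD41, AT1G26800 and SR34b both alleles had more reads with a Cvi-0 mother. POR C encodes a protochlorophyllide oxidoreductase, which makes the precursor of chlorophyll in light. It had 28.4, 40.7 and 19.8 RPM in the Cvi-0 x Col-0 libraries and 8.89, 11.6 and 4.43 RPM in the Col-0 x Cvi-0 libraries (log2 difference 1.71 ± 0.27, DESeq2 adjusted p = 0.00698). FZR3 encodes an activator of the anaphase-promoting complex that marks mitotic cyclins for destruction. Its levels were 27.6, 66.1 and 77.0 RPM in Cvi-0 x Col-0 embryos, against 12.8, 20.5 and 18.9 RPM in Col-0 x Cvi-0 embryos (log2 difference 1.44 ± 0.25, DESeq2 adjusted p = 0.00716). Its Col-0 allele had 137 reads with a Cvi-0 mother and 59 with a Col-0 mother, and its Cvi-0 allele 130 and 39.

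LBD41, a transcription factor gene of the LOB domain family known for its induction by low oxygen, had 38.3, 40.2 and 28.2 RPM with a Cvi-0 mother and 13.6, 8.96 and 10.3 RPM with a Col-0 mother (log2 difference 1.53 ± 0.27). AT1G26800, which encodes a RING/U-box protein, had 48.1, 45.3 and 12.8 RPM in the Cvi-0 x Col-0 libraries and 21.4, 9.70 and 3.72 RPM in the Col-0 x Cvi-0 libraries (log2 difference 1.54 ± 0.28). SR34b, which encodes a splicing factor with RNA recognition motifs, had 34.8, 47.7 and 14.6 RPM in Cvi-0 x Col-0 embryos, against 14.6, 16.1 and 4.02 RPM in Col-0 x Cvi-0 embryos (log2 difference 1.38 ± 0.26). Each of the 3 genes was higher with a Cvi-0 mother at every stage. The groups did not overlap for LBD41, and for AT1G26800 and SR34b the 32-cell Cvi-0 x Col-0 level lay within the range of the Col-0 x Cvi-0 libraries. DESeq2 gave adjusted p-values of 0.0128, 0.0145 and 0.0406. The Col-0 allele of AT1G26800 had 170 reads with a Cvi-0 mother and 32 with a Col-0 mother, and the Cvi-0 allele 173 and 41. SR34b reads were mostly Col-0 in both directions. Its Col-0 allele had 530 reads with a Cvi-0 mother and 198 with a Col-0 mother, and its Cvi-0 allele 185 and 65.

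The lower genes included 3 that encode proteins of the cell surface. AGP24 and AGP5 encode arabinogalactan proteins, and AT5G65660 a hydroxyproline-rich glycoprotein. AGP24 had 12.4, 1.35 and 2.102 RPM in Cvi-0 x Col-0 embryos, against 74.8, 3.55 and 4.86 RPM in Col-0 x Cvi-0 embryos (log2 difference -1.94 ± 0.36). AGP5 had 4.58, 2.63 and 1.501 RPM with a Cvi-0 mother and 13.5, 17.5 and 4.92 RPM with a Col-0 mother (log2 difference -2.16 ± 0.47). AT5G65660 had 3.88, 0.944 and 0.3003 RPM in the Cvi-0 x Col-0 libraries and 46.3, 6.52 and 0.676 RPM in the Col-0 x Cvi-0 libraries (log2 difference -2.89 ± 0.53). In AGP24 and AT5G65660 most of the level, and of its difference, was at the 1-cell/2-cell stage, whereas AGP5 was highest with a Col-0 mother at the 8-cell stage. DESeq2 adjusted p-values were 0.00944 for AGP24, 0.0296 for AGP5 and 0.00219 for AT5G65660.

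AT1G65370, which encodes a TRAF-like protein, had 28.8, 10.4 and 10.2 RPM in Cvi-0 x Col-0 embryos, against 86.0, 32.1 and 21.6 RPM in Col-0 x Cvi-0 embryos (log2 difference -1.60 ± 0.25, DESeq2 adjusted p = 0.000973). Its Cvi-0 allele had 76 reads with a Cvi-0 mother and 263 with a Col-0 mother, and its Col-0 allele 52 and 91. GSTF3, which encodes a glutathione transferase, had 2.603, 0.203 and 0 RPM with a Cvi-0 mother and 29.2, 1.11 and 0.0615 RPM with a Col-0 mother (log2 difference -3.18 ± 0.66). Its Cvi-0 allele had 5 reads with a Cvi-0 mother and 69 with a Col-0 mother, and its Col-0 allele 0 and 6. AT4G33640, which encodes a protein of the costars family, had 8.70, 8.43 and 10.4 RPM in the Cvi-0 x Col-0 libraries and 19.0, 21.2 and 22.7 RPM in the Col-0 x Cvi-0 libraries (log2 difference -1.37 ± 0.29). Its level differed little between stages in either direction, and the groups did not overlap.

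FLC, the repressor of flowering that is reset in the early embryo after its silencing by cold, had 30.5, 25.9 and 18.1 RPM with a Cvi-0 mother and 58.7, 46.4 and 31.6 RPM with a Col-0 mother (log2 difference -1.03 ± 0.23, DESeq2 adjusted p = 0.0865). The level was lower with a Cvi-0 mother at each stage. The alleles did not share the difference. The Cvi-0 allele had 149 reads with a Cvi-0 mother and 268 with a Col-0 mother, while the Col-0 allele had 130 and 110, and on Col-0 allele reads alone the log2 difference was 0.30. The sugar starvation gene DIN1 and the histone H4 gene AT3G53730 completed the lower genes and are described with their lists.

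Most heat shock genes were higher in embryos with a Cvi-0 mother. Heat shock factors such as HSFA2 and HSFA7A bind heat shock elements in DNA and switch on chaperones, which keep other proteins from aggregating, and the same genes respond to oxidative and other stress. All 24 listed genes were tested, and 19 were higher in Cvi-0 x Col-0 embryos at all 3 stages and 0 lower, against 16.1% and 13.6% of all genes. An unadjusted p under 0.05 was reached by 20, all higher with a Cvi-0 mother, against 3.27% of all genes, and none passed edgeR's test after adjustment. Their median log2 difference was 0.95, against 0.04 for all genes tested, and 0.27, 0.75 and 1.86 at the 3 stages, so it was smallest at the 1-cell/2-cell stage. Their summed level was 20979, 23503 and 10873 RPM with a Cvi-0 mother and 16316, 12292 and 2724 RPM with a Col-0 mother.

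The heat shock element searched was GAA, TTC and GAA with any 2 bases between them, on either strand, in the 250 bases before the annotated start of transcription in TAIR10.1. It occurred in 5 of 24 heat shock genes (20.8%) and in 0.386% of 27443 protein-coding genes. A match is a description of letters and not of binding. The 4 windows that follow belong to genes described here and show the element in capitals. They lie at chr2:11135374-11135623 (plus strand) for HSFA2, chr3:16984868-16985117 (minus strand) for HSP17.4, chr3:19264891-19265140 (plus strand) for HSFA7A and chr2:19370479-19370728 (minus strand) for GOLS1, each written 5′ to 3′ toward the gene.
HSFA2: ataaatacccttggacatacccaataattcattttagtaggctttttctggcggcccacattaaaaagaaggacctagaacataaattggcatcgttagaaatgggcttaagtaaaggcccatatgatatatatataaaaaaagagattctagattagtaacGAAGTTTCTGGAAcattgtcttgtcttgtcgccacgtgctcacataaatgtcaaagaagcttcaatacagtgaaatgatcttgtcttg
HSP17.4: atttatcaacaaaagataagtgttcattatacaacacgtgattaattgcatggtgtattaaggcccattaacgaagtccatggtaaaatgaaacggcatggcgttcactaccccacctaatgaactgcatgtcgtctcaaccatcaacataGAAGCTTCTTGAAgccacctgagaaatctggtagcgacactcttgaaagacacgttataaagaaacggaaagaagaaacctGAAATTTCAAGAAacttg
HSFA7A: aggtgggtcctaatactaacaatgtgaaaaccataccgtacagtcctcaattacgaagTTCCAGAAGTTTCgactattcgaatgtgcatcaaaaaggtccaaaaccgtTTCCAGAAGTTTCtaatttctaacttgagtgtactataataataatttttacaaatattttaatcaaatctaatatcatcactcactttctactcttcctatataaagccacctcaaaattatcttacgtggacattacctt
GOLS1: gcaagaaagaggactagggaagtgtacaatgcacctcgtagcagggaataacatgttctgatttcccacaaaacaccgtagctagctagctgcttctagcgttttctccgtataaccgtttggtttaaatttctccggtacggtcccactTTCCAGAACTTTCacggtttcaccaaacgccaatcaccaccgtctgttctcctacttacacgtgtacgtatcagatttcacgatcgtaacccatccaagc

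HSFA2, the factor that prolongs the heat response, had 544.5, 810.1 and 283 RPM in the Cvi-0 x Col-0 libraries and 524, 386 and 70.7 RPM in the Col-0 x Cvi-0 libraries (log2 difference 0.87 ± 0.33). HSFA7A, a factor induced together with it, had 145, 213 and 51.6 RPM in Cvi-0 x Col-0 embryos, against 81.5, 79.6 and 17.0 RPM in Col-0 x Cvi-0 embryos (log2 difference 1.11 ± 0.23, DESeq2 adjusted p = 0.0148). GOLS1, a target of heat shock factors that makes galactinol, a soluble sugar that protects cells, had 784, 1016 and 317 RPM with a Cvi-0 mother and 522, 351 and 42.0 RPM with a Col-0 mother (log2 difference 1.49 ± 0.39, DESeq2 adjusted p = 0.0128). For all of these genes the levels at the 1-cell/2-cell stage were closest between the directions, and at the 32-cell stage the Col-0 x Cvi-0 level was the lowest of the 6.

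The chaperone genes were likewise higher with a Cvi-0 mother. HSP70-4 had 3945, 3051 and 1598 RPM with a Cvi-0 mother and 2668, 1867 and 363 RPM with a Col-0 mother (log2 difference 0.96 ± 0.32). HSP70B had 2369.8, 2329.9 and 913 RPM in the Cvi-0 x Col-0 libraries and 1776, 1357 and 123 RPM in the Col-0 x Cvi-0 libraries (log2 difference 1.16 ± 0.45). HSP90.1 had 1450.1, 1109.7 and 587 RPM in Cvi-0 x Col-0 embryos, against 807, 616 and 120.4 RPM in Col-0 x Cvi-0 embryos (log2 difference 1.15 ± 0.31, DESeq2 adjusted p = 0.05). These large chaperones act together in folding, and each was higher with a Cvi-0 mother at every stage while its levels overlapped between stages. Among small heat shock proteins, which hold unfolded proteins in solution, the chloroplast protein gene HSP21 had 411, 726 and 205 RPM with a Cvi-0 mother and 285, 241 and 33.2 RPM with a Col-0 mother (log2 difference 1.41 ± 0.36, DESeq2 adjusted p = 0.0141). HSP23.6, of a mitochondrial small heat shock protein, had 1562.5, 2225 and 1186 RPM in the Cvi-0 x Col-0 libraries and 972, 1246 and 331 RPM in the Col-0 x Cvi-0 libraries (log2 difference 0.95 ± 0.27). HSP17.4, of the cytosol, had 858, 878 and 447 RPM in Cvi-0 x Col-0 embryos, against 724, 513 and 113 RPM in Col-0 x Cvi-0 embryos (log2 difference 0.82 ± 0.32). HSP21 had its highest level in the 8-cell library with a Cvi-0 mother, and all 3 had their lowest in the 32-cell library with a Col-0 mother.

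The 5 members that were not higher at every stage were HSP18.2, HSP22, MBF1C, HSFB1 and DREB2A, and each was lower with a Cvi-0 mother at the 1-cell/2-cell stage. HSP18.2 had 243, 847 and 265 RPM with a Cvi-0 mother and 603, 257 and 8.57 RPM with a Col-0 mother. The difference was carried by both alleles. In all 19 heat shock genes with enough allele reads, both the Col-0 and the Cvi-0 allele were higher with a Cvi-0 mother, against 39.6% of 7927 genes. The maternal share of heat shock allele reads was 45.0% (44.7 to 45.3) with a Cvi-0 mother and 54.8% (54.4 to 55.2) with a Col-0 mother, near the 46.8% and 53.6% of all genes. Under the alternatives on gene reads the median stayed between 0.49, without the 32-cell library with a Cvi-0 mother, and 1.26, without the 1-cell/2-cell one.

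Genes of the circadian clock were also mostly higher with a Cvi-0 mother. The clock is a loop of repressors that peak at different times of day, with CCA1, LHY and RVE1 around dawn and TOC1 in the evening. Of 18 listed genes 16 were tested, 7 of them higher at all 3 stages and 0 lower, against 16.1% and 13.6% of all genes. An unadjusted p under 0.05 was reached by 4, all higher, against 3.27%. Their median log2 difference was 0.54, with 0.29, 0.64 and 0.67 at the 3 stages. The G-box CACGTG, searched in the same windows, occurred in 37.5% of the tested clock genes and in 6.49% of all genes, and the evening element AAAATATCT in 31.2% and 2.36%. The windows of CCA1 at chr2:19245341-19245590 (plus strand) and RVE1 at chr5:5692993-5693242 (minus strand), the clock genes with the smallest p, each hold 1 G-box, shown in capitals, and 0 evening elements.
CCA1: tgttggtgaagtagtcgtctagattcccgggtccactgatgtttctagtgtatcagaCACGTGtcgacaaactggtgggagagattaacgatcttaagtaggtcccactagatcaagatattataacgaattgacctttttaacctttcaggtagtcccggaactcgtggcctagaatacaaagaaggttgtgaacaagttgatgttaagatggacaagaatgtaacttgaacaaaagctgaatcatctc
RVE1: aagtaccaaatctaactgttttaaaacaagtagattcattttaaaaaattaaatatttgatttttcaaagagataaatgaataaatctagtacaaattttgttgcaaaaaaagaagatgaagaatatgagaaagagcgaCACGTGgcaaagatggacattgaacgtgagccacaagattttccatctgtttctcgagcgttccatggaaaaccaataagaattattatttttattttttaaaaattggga

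CCA1 had 48.8, 56.4 and 31.0 RPM in Cvi-0 x Col-0 embryos, against 43.0, 5.24 and 7.07 RPM in Col-0 x Cvi-0 embryos (log2 difference 1.72 ± 0.54, DESeq2 adjusted p = 0.0803). The directions were close at the 1-cell/2-cell stage and far apart afterwards. RVE1, which links the clock to auxin, had 47.7, 38.6 and 21.6 RPM with a Cvi-0 mother and 24.1, 10.3 and 4.33 RPM with a Col-0 mother (log2 difference 1.55 ± 0.30, DESeq2 adjusted p = 0.0194). Its Col-0 allele had 181 reads with a Cvi-0 mother and 50 with a Col-0 mother, and its Cvi-0 allele 214 and 64. CDF1, a repressor of flowering time genes in the morning, had 4.23, 6.37 and 3.42 RPM in the Cvi-0 x Col-0 libraries and 1.93, 0.330 and 0.676 RPM in the Col-0 x Cvi-0 libraries (log2 difference 2.29 ± 0.81), and LNK1, a coactivator in the loop, had 67.0, 57.1 and 41.3 RPM in Cvi-0 x Col-0 embryos, against 56.8, 32.7 and 17.58 RPM in Col-0 x Cvi-0 embryos (log2 difference 0.58 ± 0.25). Not all morning genes shared the difference. LHY, the closest relative of CCA1, had 5.28, 12.3 and 9.79 RPM with a Cvi-0 mother and 6.37, 13.5 and 6.76 RPM with a Col-0 mother (log2 difference -0.13 ± 0.37). The evening gene TOC1 was higher by less at each stage, with 51.4, 59.99 and 60.3 RPM in the Cvi-0 x Col-0 libraries and 37.8, 40.5 and 42.8 RPM in the Col-0 x Cvi-0 libraries (log2 difference 0.33 ± 0.22).

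Genes of cold, dehydration and abscisic acid response had the largest median log2 difference of the lists with more than 1 tested member, 1.79 over 9 of 12 members. They were low in most libraries, and the difference lay mainly at the 8-cell stage, with medians of 0.47, 3.62 and 0.50. Their summed level was 93.0, 276.5 and 68.6 RPM with a Cvi-0 mother and 205, 16.4 and 11 RPM with a Col-0 mother, so at the 1-cell/2-cell stage the sum was higher in the Col-0 x Cvi-0 library. ERD10, which encodes a dehydrin, a protein that shields membranes and enzymes from drying, had 6.29, 42.2 and 8.35 RPM in Cvi-0 x Col-0 embryos, against 2.99, 0.826 and 0.983 RPM in Col-0 x Cvi-0 embryos (log2 difference 2.998 ± 0.82, DESeq2 adjusted p = 0.0123). COR47, a dehydrin gene of cold response, had 56.2, 158 and 43.4 RPM with a Cvi-0 mother and 152.5, 9.08 and 2.34 RPM with a Col-0 mother, with opposite sides at the first stage and the later 2. COR15A, of a chloroplast protein of cold response, had 2.88, 1.65 and 1.32 RPM in the Cvi-0 x Col-0 libraries and 0, 0 and 0.184 RPM in the Col-0 x Cvi-0 libraries, too few reads in the Col-0 x Cvi-0 direction to give a fold. KIN1 had 1.44, 48.9 and 5.67 RPM in Cvi-0 x Col-0 embryos, against 11.8, 0.289 and 1.07 RPM in Col-0 x Cvi-0 embryos. ERD10 and COR15A were the 2 members with an unadjusted p under 0.05, both higher, against 3.27% of all genes. At all 3 stages 3 of the 9 were higher and 0 lower, against 16.1% and 13.6%. The list's median was 1.13 when either 8-cell library was left out and 2.66 when either 1-cell/2-cell library was.

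Histone genes lay on the other side. Histones H2A, H2B, H3 and H4 form the nucleosome core, and most of their genes are read during DNA replication. The list was taken from the annotation's product names and holds 48 genes, of which 47 had reads and 42 were tested. Its wording also takes in 3 genes that are not core histones, the embryo regulator LEC1, AT5G50930 and AT3G07565. At all 3 stages 28 of the 42 were lower with a Cvi-0 mother and 0 higher, against 13.6% and 16.1% of all genes, and 20 had an unadjusted p under 0.05, all lower, against 2.47%. The median log2 difference was -0.57, with -0.49, -0.31 and -0.81 at the 3 stages. Their summed level was 10561.5, 10841 and 12563 RPM with a Cvi-0 mother and 14199, 11478 and 18957 RPM with a Col-0 mother.

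AT3G53730, a histone H4 gene, had 219, 391 and 597.5 RPM with a Cvi-0 mother and 442.5, 533 and 1303.5 RPM with a Col-0 mother (log2 difference -1.04 ± 0.23, DESeq2 adjusted p = 0.0077). The histone H2A gene HTA13 had 327, 364 and 412 RPM in the Cvi-0 x Col-0 libraries and 477, 551 and 807 RPM in the Col-0 x Cvi-0 libraries (log2 difference -0.88 ± 0.23, DESeq2 adjusted p = 0.05), with no overlap between the groups. The histone H4 gene HIS4 had 51.5, 58.6 and 112 RPM in Cvi-0 x Col-0 embryos, against 102, 79.0 and 189.4 RPM in Col-0 x Cvi-0 embryos (log2 difference -0.90 ± 0.22), and the H2B gene HTB4 had 1010, 898 and 1197 RPM with a Cvi-0 mother and 1455, 1014 and 1514 RPM with a Col-0 mother (log2 difference -0.52 ± 0.20). The histone H3 gene AT1G09200 had 183, 185 and 303 RPM in the Cvi-0 x Col-0 libraries and 221, 246 and 898 RPM in the Col-0 x Cvi-0 libraries (log2 difference -0.92 ± 0.32). It was among the members with the widest gap at the 32-cell stage. Genes of variant histones stood nearer to no difference. Log2 differences were 0.06 ± 0.22 for HTR12, the centromere histone gene, -0.35 ± 0.23, -0.04 ± 0.23 and -0.35 ± 0.23 for the H3.3 genes AT4G40030, AT4G40040 and AT5G10980, and -0.11 ± 0.23, -0.13 ± 0.21 and -0.29 ± 0.25 for the H2A.Z genes HTA8, HTA9 and HTA11. That contrast was noticed in the values and was not tested. In 23 of 29 histone genes with enough allele reads, both alleles were lower with a Cvi-0 mother, against 23.2% of 7927 genes. The genes of DNA replication enzymes, read in the same phase of the cell cycle, did not lie on 1 side. Of 15, 0 had an unadjusted p under 0.05, and their medians were -0.64, 0.84 and -0.26 at the 3 stages.

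**Figure D3:**
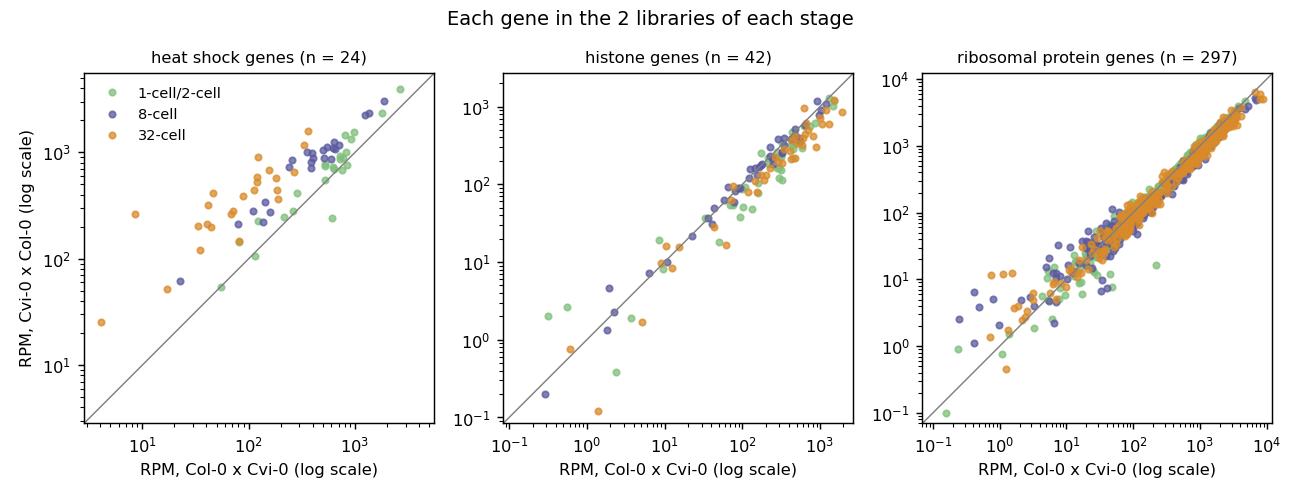
RPM of each tested heat shock, histone and ribosomal protein gene in the Cvi-0 x Col-0 library (y axis, log scale) against the Col-0 x Cvi-0 library (x axis, log scale) of the same stage, with values under 0.1 RPM drawn at 0.1 and the line of equality in grey. All 24 heat shock genes lie above the line at the 8-cell and 32-cell stages, and most histone genes lie under it at the 1-cell/2-cell and 32-cell stages. On deposited RPM 66.4% of all genes tested were higher with a Cvi-0 mother at the 8-cell stage and 67.7% at the 32-cell stage.

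Genes of ribosomal proteins, which build the machinery of protein synthesis and are among the most abundant transcripts of the embryo, were lower with a Cvi-0 mother at the later stages. Product names gave 352 genes, of which 310 had reads and 297 were tested. At all 3 stages 148 were lower and 5 higher, against 13.6% and 16.1% of all genes, and 34 had an unadjusted p under 0.05, all lower, against 2.47%. The median log2 difference was -0.35, a small shift spread over many genes, with -0.06, -0.53 and -0.48 at the 3 stages. The summed level was 164588, 181451 and 213857 RPM with a Cvi-0 mother and 168230.2, 220465 and 260528 RPM with a Col-0 mother, close to equal at the 1-cell/2-cell stage and lower at the later stages.

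The most abundant member, AT5G20290 of ribosomal protein S8e, had 4691, 5312 and 6359 RPM in Cvi-0 x Col-0 embryos, against 4679, 6615 and 6815.5 RPM in Col-0 x Cvi-0 embryos (log2 difference -0.31 ± 0.22). EMB2296, of ribosomal protein L2, had 3381, 3948 and 5021 RPM with a Cvi-0 mother and 3217, 5274 and 8706 RPM with a Col-0 mother (log2 difference -0.55 ± 0.27). AT5G15200, of ribosomal protein S4, had 4008, 4919.6 and 5969 RPM in the Cvi-0 x Col-0 libraries and 3765, 6933 and 8089 RPM in the Col-0 x Cvi-0 libraries (log2 difference -0.45 ± 0.25). In each the order turned after the first stage, where the Cvi-0 x Col-0 level was slightly higher. Both alleles were lower with a Cvi-0 mother in 112 of 197 genes, against 23.2% of 7927 genes. The site II element TGGGCC, a known element of ribosomal protein promoters, occurred in 48.1% of these genes, 35.7% of the histone genes, 41.7% of the heat shock genes and 13.7% of all genes. The telo-box AAACCCTA occurred in 15.8% of the ribosomal protein genes and 4.49% of all genes. The window of AT5G15200, chr5:4936430-4936679 (minus strand), holds 3 site II elements and 1 telo-box on the strand opposite to the one written, in capitals.
AT5G15200: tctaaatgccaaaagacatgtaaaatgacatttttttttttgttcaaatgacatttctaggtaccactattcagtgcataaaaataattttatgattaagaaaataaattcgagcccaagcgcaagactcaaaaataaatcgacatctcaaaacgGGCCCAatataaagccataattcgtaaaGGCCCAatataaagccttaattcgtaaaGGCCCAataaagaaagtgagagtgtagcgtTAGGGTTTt

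Genes induced by sugar starvation and darkness, most of which report low energy through the kinase SnRK1, were lower with a Cvi-0 mother at the earliest stage. Of 22 genes 17 were tested, 6 were lower at all 3 stages and 2 higher, against 13.6% and 16.1% of all genes, and 6 had an unadjusted p under 0.05, all lower, against 2.47%. Their median log2 difference was -0.61, with -1.097, 0.16 and -0.11 at the 3 stages. It was -0.05 when either 1-cell/2-cell library was left out and -1.19 when either 8-cell library was. The summed level was 893, 212 and 95.9 RPM with a Cvi-0 mother and 2007, 123 and 89.2 RPM with a Col-0 mother, so the list was abundant only in the 1-cell/2-cell libraries. DIN1, a gene of senescence and darkness, had 58.3, 0.405 and 0 RPM in Cvi-0 x Col-0 embryos, against 216, 5.70 and 1.11 RPM in Col-0 x Cvi-0 embryos (log2 difference -2.93 ± 0.57, DESeq2 adjusted p = 0.18). MIOX4, of an inositol oxygenase, had 30.8, 0.640 and 0 RPM with a Cvi-0 mother and 91.0, 1.36 and 0.123 RPM with a Col-0 mother (log2 difference -1.56 ± 0.41). PRODH1, of the proline dehydrogenase that burns proline for energy, had 28.0, 3.74 and 3.57 RPM in the Cvi-0 x Col-0 libraries and 77.8, 5.32 and 5.68 RPM in the Col-0 x Cvi-0 libraries (log2 difference -1.07 ± 0.29). All 3 were lower at each stage and had most of their reads at the 1-cell/2-cell stage. DIN10, of a raffinose synthase, went the other way at the later stages, with 231, 112 and 37.8 RPM in Cvi-0 x Col-0 embryos, against 350.1, 35.8 and 27.8 RPM in Col-0 x Cvi-0 embryos. The sugar-response element TATCCA occurred in 41.2% of the tested members and 13.6% of all genes.

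Disease resistance genes, which encode receptors that detect molecules of pathogens, were low throughout. Of 159 with such a product name 132 had reads and 55 were tested. At all 3 stages 16 were higher with a Cvi-0 mother and 2 lower, against 16.1% and 13.6% of all genes. An unadjusted p under 0.05 was reached by 5 (AT1G61100, AT5G51630, AT1G72840, AT4G12010 and AT1G61190), all higher, against 3.27%. The median log2 difference was 0.45, with -0.13, 0.56 and 0.53 at the 3 stages, and it was 1.01 when either 1-cell/2-cell library was left out. AT1G61100, the most abundant, had 43.1, 24.6 and 10.2 RPM with a Cvi-0 mother and 25.8, 9.58 and 3.96 RPM with a Col-0 mother (log2 difference 0.97 ± 0.27). These gene families differ in sequence between accessions, and reads with unlisted variants were not kept, so levels of the Cvi-0 alleles may be too low in both directions.

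Photosynthesis genes did not keep 1 sign. Of 39 genes 38 were tested and 1, RBCS2B, had an unadjusted p under 0.05. Their median log2 difference was 0.37, 0.72 and -1.85 at the 3 stages, and 34 of 38 were lower with a Cvi-0 mother at the 32-cell stage, where 51.0% of all genes were higher. The summed level was 427, 573 and 462 RPM with a Cvi-0 mother and 396, 248 and 1358 RPM with a Col-0 mother. The 32-cell library with a Col-0 mother thus stood above the other 5. PSBW, of photosystem II, had 20.6, 19.998 and 34.7 RPM in the Cvi-0 x Col-0 libraries and 4.44, 6.44 and 162 RPM in the Col-0 x Cvi-0 libraries, and the ferredoxin gene FD2 had 23.1, 20.6 and 41.1 RPM in Cvi-0 x Col-0 embryos, against 12.5, 8.26 and 125 RPM in Col-0 x Cvi-0 embryos.

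In the 2 cell cycle lists 0 members had an unadjusted p under 0.05, against 5.74% of all genes. Of 23 mitosis and cytokinesis genes, 0 were higher at all 3 stages and 4 lower, against 16.1% and 13.6% of all genes, and the medians were 0.27, -0.81 and 0.16. KN, the syntaxin gene of the dividing cell plate, had 43.0, 92.8 and 279.8 RPM with a Cvi-0 mother and 14.5, 173 and 179 RPM with a Col-0 mother, and the mitotic cyclin gene CYCB1;2 had 78.8, 115 and 172 RPM in the Cvi-0 x Col-0 libraries and 58.8, 185 and 109 RPM in the Col-0 x Cvi-0 libraries. At the 8-cell stage 20 of 23 were lower with a Cvi-0 mother, while 13 of 15 DNA replication genes were higher, against 53.1% of all genes higher at that stage. RNR1, of ribonucleotide reductase, had 250.1, 225 and 199 RPM in Cvi-0 x Col-0 embryos, against 482, 102 and 139 RPM in Col-0 x Cvi-0 embryos, and MCM5, of the replicative helicase, had 62.7, 87.6 and 71.3 RPM with a Cvi-0 mother and 118, 27.9 and 54.5 RPM with a Col-0 mother. The replication genes lay on the other side at the 1-cell/2-cell stage, with 12 of 15 lower, against 51.0% of all genes higher there.

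Genes that pattern the embryo did not lie on 1 side. Of 39 listed genes 34 were tested, 5 were higher at all 3 stages and 1 lower, against 16.1% and 13.6% of all genes, and the median log2 difference was 0.15. The other 28 did not keep 1 side at all 3 stages, and fitted log2 differences of the list ran from -1.24 to 1.55. PLT1, a regulator of the root pole, was the 1 member with an unadjusted p under 0.05, with 29.9, 81.6 and 69.9 RPM in the Cvi-0 x Col-0 libraries and 16.6, 52.6 and 43.3 RPM in the Col-0 x Cvi-0 libraries (log2 difference 0.55 ± 0.23). PDF1, a gene of the outer cell layer, was higher at each later stage in both directions and had 79.8, 1208.5 and 2227 RPM in Cvi-0 x Col-0 embryos, against 97.4, 1205 and 3179 RPM in Col-0 x Cvi-0 embryos (log2 difference -0.44 ± 0.22). WOX8, a marker of the suspensor, the stalk that carries the embryo, had 72.3, 38.2 and 28.6 RPM with a Cvi-0 mother and 49.2, 54.9 and 10.4 RPM with a Col-0 mother. Among genes of embryo identity and maturation 10 of 17 were tested, 0 had an unadjusted p under 0.05, and the medians were -0.03, 1.61 and -0.05. LEC1 had 254, 184 and 194 RPM in the Cvi-0 x Col-0 libraries and 174, 179 and 288 RPM in the Col-0 x Cvi-0 libraries.

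Lists of tissues around the embryo and of handling showed no member with an unadjusted p under 0.05. For seed coat and flavonoid genes 12 of 17 were tested, with medians of -0.14, -0.25 and 1.23, and TT4, the chalcone synthase gene, had 24.2, 39.1 and 51.7 RPM in Cvi-0 x Col-0 embryos, against 19.98, 25.3 and 15.8 RPM in Col-0 x Cvi-0 embryos. TT4 reads came from the mother, 342 of 342 in the Cvi-0 x Col-0 direction (100% (98.9 to 100)) and 84 of 87 in the Col-0 x Cvi-0 direction (96.6% (90.3 to 99.3)). The accession written first was thus the one that supplied nearly all reads of this seed coat gene in both directions. Allele reads of BAN, TT18 and TT3 were likewise at least 96.3% maternal in both directions. Those of TT6, a flavonoid gene of the list, were 79.3% maternal (74.1 to 83.9) with a Cvi-0 mother and 48.4% (41.9 to 54.8) with a Col-0 mother. For endosperm genes 5 of 12 were tested, with a median of 0.29. For genes of wounding, jasmonate and touch 16 of 19 were tested, with a median of -0.02. The glucosinolate list had 12 genes and 1 tested, ESP, and the egg cell list 5 genes and 1 tested, EC1.5, with 56.2, 9.51 and 9.82 RPM with a Cvi-0 mother and 33.5, 7.39 and 16.4 RPM with a Col-0 mother.

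**Figure D4:**
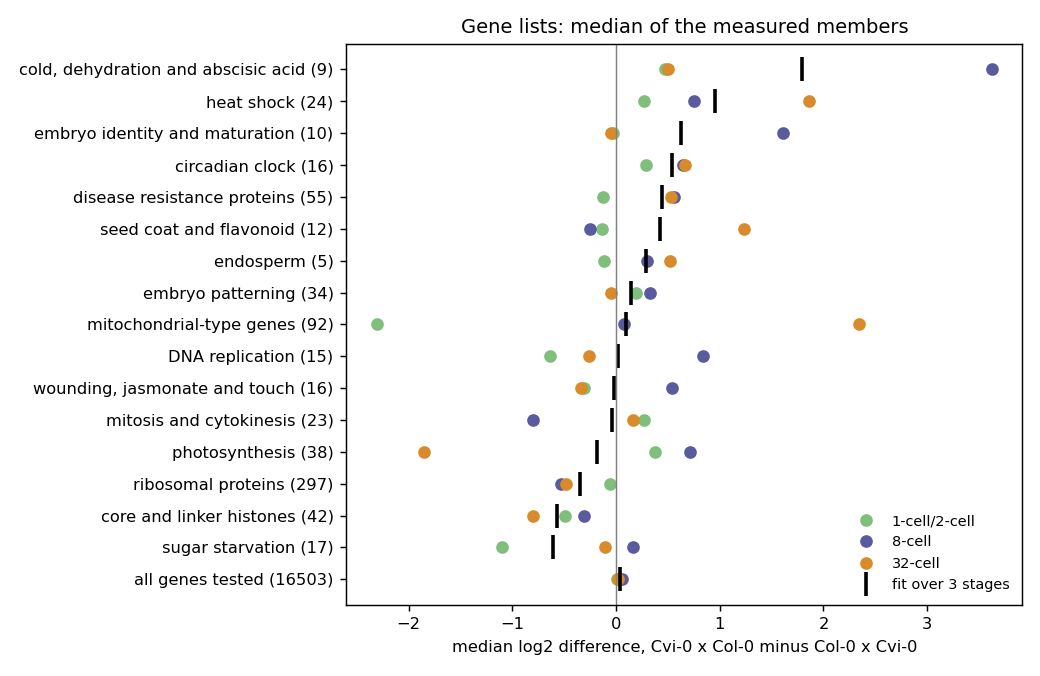
Median log2 difference (Cvi-0 x Col-0 minus Col-0 x Cvi-0) of the tested members of each list at each stage (dots) and in the fit over all stages (black bars), with the number of tested members in brackets. The medians of heat shock genes lie above 0 and those of histone genes below 0 at each stage, while those of photosynthesis, DNA replication and mitochondrial-type genes lie on both sides.

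Whether the directions were offset in developmental time was described with genes that differ between stages. For each stage in turn, stage genes were chosen in the 4 libraries of the 2 other stages, as those that differed at least 2-fold on average with no overlap between the stages. Both libraries of the held-out stage were then placed on a line where 0 is the mean of the earlier of those stages and 1 the mean of the later. A library that lagged would lie further toward the earlier end. On 4637 stage genes the 8-cell library lay at 0.591 in the Cvi-0 x Col-0 direction and 0.492 in the Col-0 x Cvi-0 direction. On 2560 genes the 1-cell/2-cell library lay at -0.013 in the Cvi-0 x Col-0 direction and -0.121 in the Col-0 x Cvi-0 direction. On 2503 genes the 32-cell library lay at 1.085 in the Cvi-0 x Col-0 direction and 1.105 in the Col-0 x Cvi-0 direction. The differences were 0.108, 0.099 and -0.020 of the distance between the 2 other stages. The Cvi-0 x Col-0 libraries thus lay slightly toward the later end of these lines at the first 2 stages and 0.020 toward the earlier end at the last. The line for the 1-cell/2-cell stage runs from the 8-cell to the 32-cell stage, and both libraries lay near its 0. Genes chosen for that line need not change before the 8-cell stage, so the gap there cannot be read as a shift in time. With stage genes that differed at least 4-fold the differences were 0.167, 0.114 and 0.005, so the sign at the last stage depended on this choice and the Col-0 x Cvi-0 library then lay toward the earlier end at all 3 stages. With 1 library each these differences have no error and no test.

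**Figure D5:**
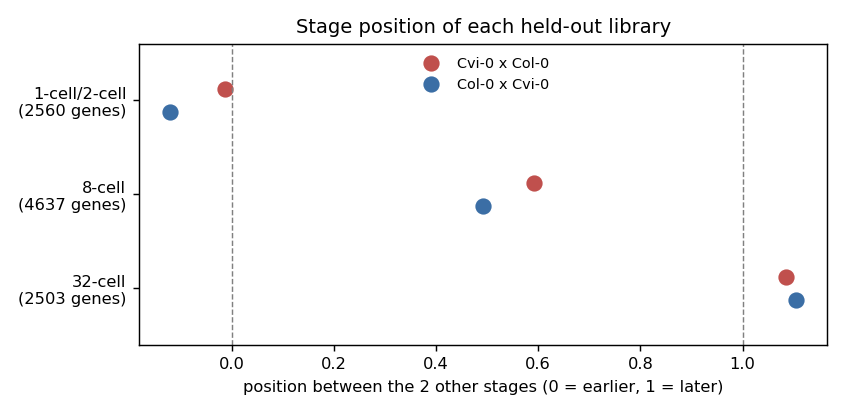
Position of the 2 libraries of each held-out stage on the line between the other stages (0 is the earlier of these, 1 the later, dashed lines), with the number of stage genes in brackets. The directions lie 0.108, 0.099 and -0.020 apart, Cvi-0 x Col-0 minus Col-0 x Cvi-0.

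Stage genes were also counted one by one. At the 8-cell stage, 61.6% of genes that rise with development were higher with a Cvi-0 mother and 54.7% of genes that fall, against 53.1% of all genes. Their median log2 differences were 0.28 for rising and 0.10 for falling genes. At the 32-cell stage 41.7% of rising and 53.7% of falling genes were higher with a Cvi-0 mother, against 51.0% of all genes. At the 1-cell/2-cell stage these shares were 50.3% and 49.1%, against 51.0% of all genes. A direction that is simply earlier or later would move rising and falling genes to opposite sides, and this was seen to a small extent at the 32-cell stage, where medians were -0.14 for rising and 0.05 for falling genes. With 4-fold stage genes both medians there were below 0, -0.20 and -0.12. On deposited RPM they were 0.09 and 0.29, beside 0.25 for all genes. At the 1-cell/2-cell stage 37.5% of 4-fold falling genes were higher with a Cvi-0 mother, with a median of -0.44. Mitochondrial-type genes were not removed from the stage genes. Their median log2 difference was -2.68 between the 32-cell and the 8-cell stage and -2.31 between the crosses at the 1-cell/2-cell stage. Their part in this share and in the positions at that stage was not tested.

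The gene lists did not follow 1 course either. For each list, the side of the cross difference was set beside its change from the earlier to the later of the other stages. At the 8-cell stage 12 of 15 lists lay on the earlier side with a Cvi-0 mother and 3 on the later side, although the position over all stage genes was later. Heat shock genes had a median log2 difference of -1.76 between the 32-cell and the 1-cell/2-cell stage and of 0.75 between the crosses at the 8-cell stage, which is the earlier side. Ribosomal protein genes had a stage difference of 0.51 and a cross difference of -0.53, and histone genes had 0.51 and -0.31, also the earlier side. Patterning genes had 1.65 and 0.33, and photosynthesis genes 1.12 and 0.72, which is the later side. At the 1-cell/2-cell stage 7 lists lay on the earlier side and 8 on the later, and at the 32-cell stage 8 and 7. Heat shock, clock, cold, histone, ribosomal protein, sugar starvation and disease resistance genes all lay on the earlier side at the 8-cell stage. Clock, cold and ribosomal protein genes did so at all 3 stages, while the others changed side between stages. Some sides rest on small stage differences. At the 32-cell stage these were 0.10 for heat shock and -0.04 for histone genes. At the 8-cell stage they were -0.07 for DNA replication, -0.22 for disease resistance and -0.35 for cold genes. For clock genes they were -0.15, -0.26 and -0.20 at the 3 stages. The summed level of cold genes at the 1-cell/2-cell stage was lower with a Cvi-0 mother, unlike their median. These sides were not tested.

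Other genes called by DESeq2 and not by edgeR fell outside the rule for naming, and the ones given here were chosen after their values were seen. AT2G29500, of a small heat shock protein outside the list, had 1108, 1263 and 779.6 RPM in Cvi-0 x Col-0 embryos, against 737, 413 and 107 RPM in Col-0 x Cvi-0 embryos, and APX2, an ascorbate peroxidase gene induced by heat and strong light, had 352, 589 and 189 RPM with a Cvi-0 mother and 266, 154 and 19.6 RPM with a Col-0 mother. Both followed the listed heat shock genes, with DESeq2 adjusted p-values of 0.00944 and 0.0123. PHYA, which encodes the far-red light receptor phytochrome A, had 10.8, 33.3 and 41.6 RPM in the Cvi-0 x Col-0 libraries and 1.81, 6.60 and 19.7 RPM in the Col-0 x Cvi-0 libraries (DESeq2 adjusted p = 0.0286), and both of its alleles had more reads with a Cvi-0 mother. EXLA1 and EXLA2 encode expansin-like proteins of the cell wall. EXLA1 had 54.4, 62.1 and 9.70 RPM in Cvi-0 x Col-0 embryos, against 31.4, 13.9 and 2.06 RPM in Col-0 x Cvi-0 embryos, and EXLA2 had 23.54, 37.1 and 3.18 RPM with a Cvi-0 mother and 13.9, 0.371 and 0.492 RPM with a Col-0 mother. SPL3, a transcription factor gene of phase change and a target of miR156, had 12.6, 1.48 and 0.901 RPM in the Cvi-0 x Col-0 libraries and 0.315, 0 and 0.0615 RPM in the Col-0 x Cvi-0 libraries. Among lower genes, AT2G32280 had 0.350, 11.9 and 29.6 RPM in Cvi-0 x Col-0 embryos, against 8.38, 18.05 and 68.7 RPM in Col-0 x Cvi-0 embryos, and AT3G24068, of a protein related to plant self-incompatibility protein S1, had 0.0777, 0.270 and 4.62 RPM with a Cvi-0 mother and 0.0787, 0.908 and 58.3 RPM with a Col-0 mother. These 2 differ from most lower genes in that their levels were highest at the 32-cell stage.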

How the data were processed

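Poly(A) RNA of 6 embryo pools was sequenced with strand kept, 1 library for each of 3 stages and 2 cross directions. Per the submitters' processing notes and the series' design text, the authors mapped reads with Bowtie to genome and transcripts of Col-0 (TAIR10), and again with Cvi-0 variants put in, keeping perfect and unique matches. Such matching loses reads with unlisted variants and reads shared by near-identical genes. No version of Bowtie and no counter is given in the sources used here. The deposited gene reads are estimated counts of reads overlapping each gene, per the file headers, in steps of 0.5 (31.7% of entries were not whole), and were rounded. The deposited RPM were scaled by the authors to the reads matching genome and transcripts in each library. Allele read counts were deposited per gene for each parent, per the file headers. Genes absent from a file, and 9210 entries written NA, were read as 0, and another 36 value columns were not used.

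Gene reads were filtered with filterByExpr by cross and scaled with TMM (factors 0.857 to 1.11). They were tested with edgeR 4.0.16 (glmQLFit, glmQLFTest; R 4.3.3) with stage as block, Benjamini-Hochberg adjustment over 16503 genes and a threshold of 0.05. The biological coefficient of variation was 40.7%, with 2 residual degrees of freedom. The SE is the log2 difference divided by the square root of F. DESeq2 1.42.0 and limma 3.58.1 (log2 of RPM plus a pseudocount) were alternatives. Others changed the scaling, filter, block or allele, or left out 1 library. The fit was tested on simulated data. Differences at single stages are log2 of CPM plus 0.5. Counts of list genes with both alleles on 1 side took genes with at least 10 reads of each allele and 30 in all, and allele reads of single genes are given as counted. Gene reads ran from 10299142 to 14805499 per library.

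The rule for naming genes took, in each direction, genes past the threshold and then those with the smallest p and the same sign at all 3 stages up to 10, the 3 most abundant tested members of each list, and the cell type markers; members with an unadjusted p under 0.05 were named from lists after their values were seen. Genes and lists were chosen with earlier results of these data known, so list counts are descriptions beside those of all genes. Symbols, products, coordinates and sequences came from RefSeq's TAIR10.1 by locus identifier (23747 of 23874 genes). Upstream windows of 250 bases were read for 27443 protein-coding genes from its genome and annotation.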

Additional observations from a re-analysis of the deposited data

Results flagged for a closer look

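In 3 lists the median log2 difference between the crosses was beyond 0.5 on 1 side at 1 stage and beyond 0.5 on the other side at another. The difference between stages was not tested, since each stage had 1 library per direction. Mitochondrial-type genes, a list drawn up after values were seen, had medians of -2.31 at the 1-cell/2-cell stage, 0.074 at the 8-cell stage and 2.35 at the 32-cell stage. DNA replication genes had medians of -0.64, 0.84 and -0.26 at the same stages. Photosynthesis genes had medians of 0.37, 0.72 and -1.85.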

How the results depend on the processing

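The count of called genes depended on the tool and on single libraries. Genes called higher with a Cvi-0 mother, 0 in edgeR's main fit, numbered 3 with no filter on low counts, 9 on Cvi-0 allele reads alone and 31 in DESeq2. With 1 library left out they numbered 0 to 11, with 1 when the 1-cell/2-cell library with a Cvi-0 mother was left out, 3 when that with a Col-0 mother was and 11 without either 32-cell library. Genes called lower, 1 in the main fit, numbered 5 with no filter, 2 on Col-0 allele reads alone, 22 in DESeq2, and 0 without the stage block and in limma with either pseudocount, where AT2G07667 lost its call. With 1 library left out they numbered 1 to 22, with 2 and 3 without the 1-cell/2-cell libraries (Cvi-0 mother, Col-0 mother) and 22 and 21 without the 32-cell ones. In such fits 1 stage is left with a lone library that adds nothing to the cross difference.

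Scaling by library totals moved the median of all genes from 0.04 to 0.20, and that of patterning genes to 0.34. The seed coat median was -7.30 on Col-0 allele reads and 6.23 on Cvi-0 allele reads, over 3 genes each, and ran from -0.43 to 0.49 with 1 library left out, the negative values without either 32-cell library. The endosperm median was -0.077 without the stage block and -0.30 to 0.50 with 1 library left out, negative without either 32-cell library. That of wounding genes was 0.60 on Cvi-0 allele reads. That of disease resistance genes was 1.04 on Col-0 and 1.28 on Cvi-0 allele reads, and 0.29 to 1.01 with 1 library left out. FLC turned to 0.30 on Col-0 allele reads. The cause of these moves was not tested. Of 28 named genes with an unadjusted p under 0.05, 1 changed sign under some setting, and of 44 others 30 did. The median of cold and dehydration genes ran from 1.13 to 2.66, that of sugar starvation genes from -1.19 to -0.05, that of patterning genes from 0.08 to 0.20 and that of wounding genes from -0.39 to 0.24 with 1 library left out. The position difference at the 32-cell stage, -0.020, was 0.005 with 4-fold stage genes, and that at the 1-cell/2-cell stage, 0.108, was 0.167.

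The stage block already pairs the directions. No pairing beyond stage was possible, because the labels give no replicate numbers and each stage and cross has 1 library. Depth limits genes with few reads, and counting intervals do not cover variation between embryo pools.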

Other observations

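Genes of mitochondrial dysfunction and of low oxygen were looked up after the values of AT2G07667 and LBD41 were seen. Of 9 targets or factors of the mitochondrial retrograde signal 5 were tested. AOX1A, the alternative oxidase gene, had 46.0, 58.1 and 12.4 RPM with a Cvi-0 mother and 160.3, 267 and 7.13 RPM with a Col-0 mother. UPOX1, a marker of oxidative stress, had 13.8, 11.5 and 8.35 RPM with a Cvi-0 mother and 48.8, 257 and 7.25 RPM with a Col-0 mother. ANAC013, a transcription factor of that signal, had 12.7, 9.31 and 10.7 RPM with a Cvi-0 mother and 34.6, 31.0 and 9.93 RPM with a Col-0 mother. NDB4, of an alternative NADH dehydrogenase, had 0, 2.56 and 1.56 RPM with a Cvi-0 mother and 2.20, 46.4 and 0.984 RPM with a Col-0 mother. At12Cys-2, of a small mitochondrial protein family, had 109.8, 45.3 and 27.9 RPM with a Cvi-0 mother and 120.2, 310.4 and 23.1 RPM with a Col-0 mother. All 5 had lower RPM with a Cvi-0 mother at the 2 earlier stages, At12Cys-2 only slightly at the first, and none passed edgeR's test. At the 32-cell stage all 5 had higher RPM with a Cvi-0 mother, but for 3 of them this depended on the scaling. With TMM scaling the log2 differences there were -0.05 for UPOX1, -0.14 for ANAC013 and 0.02 for At12Cys-2. The fermentation genes ADH1 and PDC1 were high in 1 library. ADH1 had 28.0, 11.9 and 16.8 RPM with a Cvi-0 mother and 68.5, 365 and 11.4 RPM with a Col-0 mother, and PDC1 had 9.40, 7.02 and 2.37 RPM with a Cvi-0 mother and 12.3, 140.5 and 3.23 RPM with a Col-0 mother. HRE2, a transcription factor gene of low oxygen, had 12.7, 15.7 and 13.3 RPM with a Cvi-0 mother and 21.2, 66.6 and 3.81 RPM with a Col-0 mother. Other genes of the low oxygen response lay on the other side. LBD41 is described above, and over all stages the log2 difference was 1.54 ± 0.70 for HRA1, 0.85 ± 0.37 for PCO2 and 0.90 ± 0.64 for PCO1. HRA1 and PCO2 were higher with a Cvi-0 mother at all 3 stages, PCO1 at the later 2, and none of the low oxygen genes passed edgeR's test. AT2G32020, of an acyltransferase family, had 0 reads in all 3 Cvi-0 x Col-0 libraries and 6.29, 8.59 and 0.553 RPM in the Col-0 x Cvi-0 libraries.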
